A study of Mus musculus with 4 samples.

Results

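The Zic family encodes zinc-finger transcription factors related to the Gli proteins, and 4 of its genes, Zic1, Zic4, Zic2 and Zic5, were followed here in the neuroretina of mouse embryos, the layer that gives rise to all retinal neurons. A gene was included when the array annotation gave a transcript cluster, the array's unit for a transcribed locus, the symbol of that gene and no other. Each of the 4 genes had 1 such transcript cluster, among 20252 genes and 112205 transcript clusters in all. The Cre arrays were 2 arrays of Chx10-Cre;Lhx2 lox/lox retina, and the control arrays were 2 arrays of Lhx2 lox/lox retina, all from CD-1 embryos at day 13.5. Both groups carry loxP-flanked alleles of Lhx2, a LIM-homeodomain factor needed for eye development, and only the Cre arrays carry a transgene in which Chx10, a gene of retinal progenitors, drives Cre recombinase. Effects of Cre itself and of losing Lhx2 cannot be told apart.

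Zic proteins bind DNA through their zinc fingers, act with or against Gli proteins, the effectors of hedgehog signalling, and hold neural precursors in a dividing state in the dorsal neural tube. In the eye, Zic2 is known from mouse work to direct axons of ventrotemporal retinal ganglion cells to the brain hemisphere of the same side. In mouse and human, Zic1 and Zic4 lie side by side and act in cerebellar development, while Zic2 and Zic5 form a second neighbouring pair, and loss of Zic2 causes holoprosencephaly, a failure of the forebrain to divide. Zic genes are also active in dorsal forebrain and in meningeal and other head mesenchyme.

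Signals are log2 values, shifted so that every array has the same median over all transcript clusters, because the deposited array medians were 2.85 and 3.46 in the Cre arrays and 2.97 and 3.53 in the control arrays. The transcript cluster of Lhx2 itself had 6.73 and 6.24 in the Cre arrays and 6.59 and 6.16 in the control arrays, a log2 difference of 0.11 (SE 0.30). Its probes may lie outside the deleted part, so this does not check the genotype, and every direction rests on the labels. The 11 measured neuroretina markers had mean log2 signals of 6.80 and 6.63 in Cre arrays and 8.33 and 8.15 in control arrays, with 10 of 11 lower in the Cre arrays. Levels of different genes are not set against each other, since probes differ in brightness. In whole tissue, more cells that express a gene and more RNA per cell cannot be told apart.

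Zic4 showed the largest difference of the 4 genes, about 2-fold higher in the Cre arrays, and Zic1 was higher by a smaller amount. Zic2 and Zic5 had differences close to 0. None of the 4 passed limma's test at an adjusted p of 0.05, and neither did any other gene: 0 of 20252 passed, 0% of genes higher and 0% lower, with 1959 at an unadjusted p under 0.05. Of the 4 Zic genes, Zic4 alone had an unadjusted p under 0.05, against 5.9% of all genes higher and 3.77% lower at that level. At an adjusted p of 0.10, 0 of the 4 passed, against 0.0543% of all genes higher and 0.0296% lower.

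For Zic4 (transcript cluster 6991326) the log2 signals were 4.99 and 5.23 in Cre arrays and 4.06 and 4.08 in control arrays. Both Cre arrays lay above both control arrays, and the gap between the groups was wider than the spread within either. The mean was 5.11 ± 0.17 in the Cre arrays and 4.07 ± 0.02 in the control arrays (SD, n = 2 each), a log2 difference of 1.04 (SE 0.19, 95% interval 0.55 to 1.53), or 2.06-fold. The unadjusted p was 0.00274 and the adjusted p was 0.198 in limma, so the difference failed the correction for testing all genes. Of all genes, 2.87% were at least 2-fold higher in the Cre arrays, and 2.69% had a difference as high as that of Zic4. The control signals stood at the 72.0 and 73.5 percentiles of their arrays and the Cre signals at the 80.7 and 83.5 percentiles. The 75th percentile serves here as a mark for dim signals, and both control arrays were below it, so the fold sets a clear signal against one that may be background. Arrays of replicate number 1 differed by 0.94 and those of number 2 by 1.15.

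For Zic1 (transcript cluster 6997764) the log2 signals were 6.75 and 7.06 in Cre arrays and 6.44 and 6.39 in control arrays. The groups did not overlap for this gene either, but the lower Cre array was only 0.31 above the control array of its own replicate number. Means were 6.90 ± 0.22 in Cre arrays and 6.42 ± 0.03 in control arrays (SD, n = 2 each). The log2 difference of 0.49 (SE 0.24, 95% interval -0.13 to 1.11) amounts to 1.40-fold, with a limma unadjusted p of 0.0974 and adjusted p of 0.630. Replicate 2 gave the larger difference, 0.67. Genes with a difference as high made up 9.25% of all genes. Thus 2 of the 4 Zic genes, both of the chromosome 9 pair, had groups that did not overlap, both higher in the Cre arrays, against 23.3% of all genes that did not overlap in that direction. No Zic gene had groups apart in the other direction, in which 15.8% of all genes did. With 2 arrays per group such separation is common, and precision is limited by the number of arrays.

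**Figure D1:**
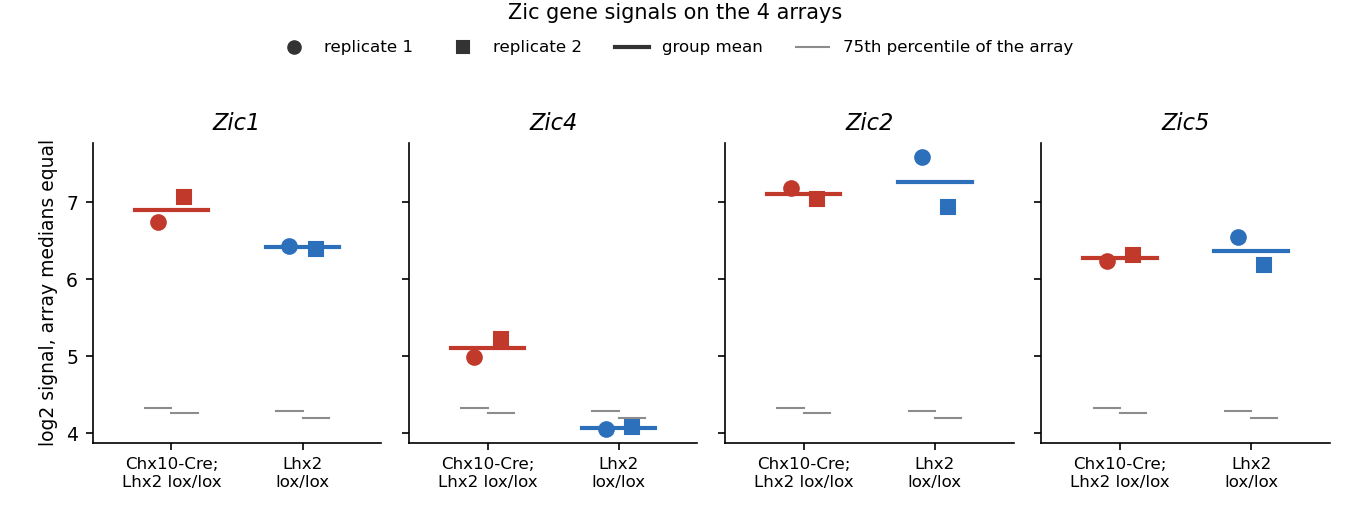
Log2 signal of each Zic gene (vertical axis, array medians equal) on each array, with the Cre arrays in red left of the control arrays in blue. Circles are replicate 1, squares replicate 2, coloured bars the group means and grey bars the 75th percentile of each array. For Zic4 the Cre arrays sit at 4.99 and 5.23, above the grey bars, and the control arrays at 4.06 and 4.08, below them, while Zic2 and Zic5 overlap.

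Zic2 (transcript cluster 6822317) gave log2 signals of 7.18 and 7.04 in Cre arrays and 7.59 and 6.94 in control arrays. The control arrays held both the highest and the lowest value, so the groups overlapped completely. With means of 7.11 ± 0.10 in Cre and 7.27 ± 0.46 in control arrays (SD, n = 2 each), the log2 difference was -0.15 (SE 0.31, 95% interval -0.94 to 0.63, limma adjusted p = 0.954). Replicate 1 gave -0.41 and replicate 2 gave 0.099. Its interval does not show that Zic2 was equal in the groups: it runs from -0.94 to 0.63.

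Zic5 (transcript cluster 6827978), which in the mouse acts in neural crest and neural tube closure, had log2 signals of 6.23 and 6.31 in Cre arrays and 6.55 and 6.19 in control arrays. As for Zic2, control replicate 1 was the highest of the 4 arrays and control replicate 2 the lowest. Zic5 averaged 6.27 ± 0.06 in Cre and 6.37 ± 0.25 in control arrays (SD, n = 2 each), a log2 difference of -0.095 (SE 0.24, 95% interval -0.72 to 0.53, limma adjusted p = 0.967). Replicate 1 gave -0.32 and replicate 2 gave 0.13. The sign of both chromosome 14 genes thus differed by replicate number, and without control replicate 1 their differences were 0.17 for Zic2 and 0.083 for Zic5.

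**Figure D2:**
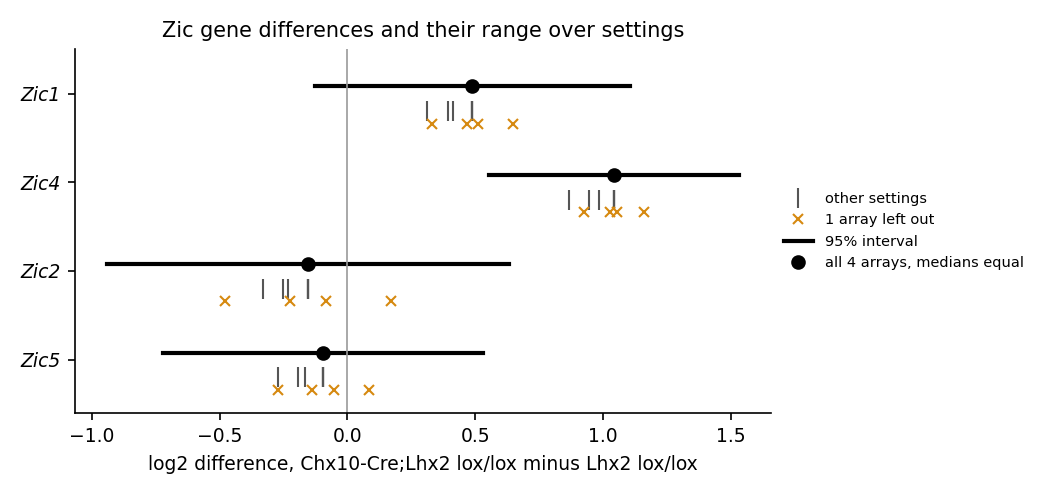
Log2 difference of each Zic gene, Cre minus control (horizontal axis), with its 95% interval (black), its value under 8 other settings (grey ticks, some of which coincide) and its value with each array left out (orange crosses). Zic4 lies between 0.87 and 1.16 in every one of these fits and Zic1 between 0.31 and 0.65, while Zic2 and Zic5 cross 0 when control replicate 1 is left out.

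Because every gene on an array shares its scale, the genes were also compared within each array, which removes any shift between arrays. The log2 signal of Zic4 minus that of Zic2 was -2.19 and -1.81 in Cre arrays and -3.54 and -2.86 in control arrays, a change of 1.20 towards Zic4 in the Cre arrays. Zic4 minus Zic5 was -1.24 and -1.08 in Cre arrays and -2.49 and -2.11 in control arrays, a change of 1.14. These values speak of unequal differences between genes and not of their levels. Zic1 also shifted against the chromosome 14 pair, by 0.64 relative to Zic2 and by 0.58 relative to Zic5. Within the chromosome 9 pair, Zic1 minus Zic4 was 1.75 and 1.83 in Cre arrays and 2.38 and 2.31 in control arrays, so the difference of Zic4 was the larger by 0.55. Zic2 minus Zic5 gave 0.95 and 0.73 in Cre arrays and 1.05 and 0.75 in control arrays, which overlap. Of the 6 pairs, which share their genes and are not independent, 5 had groups that did not overlap, each with Zic1 or Zic4 in it. They restate the differences of these genes, and the share over all pairs of genes on the arrays was not computed. A two-sided exact permutation test of 2 arrays against 2 cannot give a p below 0.333, which those 5 pairs reached (0.400 adjusted over the 6 pairs), so none of them could pass.

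**Figure D3:**
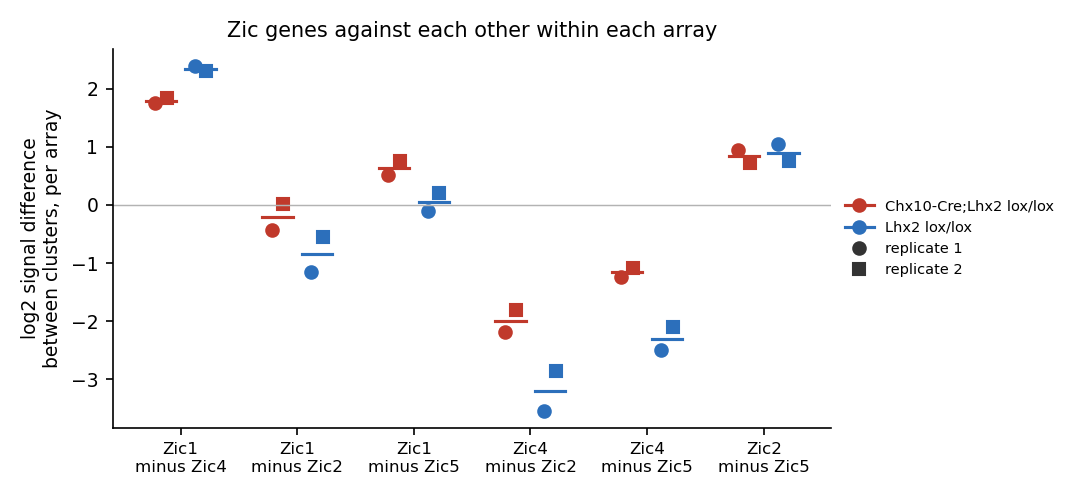
Difference in log2 signal between each pair of Zic genes on the same array (vertical axis), for the Cre arrays in red left of the control arrays in blue, with circles for replicate 1, squares for replicate 2 and bars for group means. The groups are apart for every pair except Zic2 minus Zic5.

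The promoters of Zic1 and Zic4 are shown because these neighbours were the genes whose arrays did not overlap, and that of Zic5 as the one from the other pair. Each line is the 250 bases before the annotated start of transcription from RefSeq (GRCm38.p6), read 5′ to 3′ on the gene's strand, with CG dinucleotides in capitals. Zic1 (chr9:91365769-91366018) and Zic5 (chr14:122465659-122465908) are on the minus strand and Zic4 (chr9:91368722-91368971) is on the plus strand.
Zic1: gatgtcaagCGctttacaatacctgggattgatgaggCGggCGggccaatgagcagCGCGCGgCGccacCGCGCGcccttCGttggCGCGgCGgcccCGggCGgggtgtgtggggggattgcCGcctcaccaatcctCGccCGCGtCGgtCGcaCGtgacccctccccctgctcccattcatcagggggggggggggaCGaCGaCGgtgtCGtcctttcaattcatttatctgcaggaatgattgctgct
Zic4: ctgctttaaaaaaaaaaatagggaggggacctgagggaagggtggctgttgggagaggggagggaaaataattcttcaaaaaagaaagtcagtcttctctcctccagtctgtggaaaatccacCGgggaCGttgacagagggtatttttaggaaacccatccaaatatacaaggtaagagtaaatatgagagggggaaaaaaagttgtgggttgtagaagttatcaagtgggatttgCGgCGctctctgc
Zic5: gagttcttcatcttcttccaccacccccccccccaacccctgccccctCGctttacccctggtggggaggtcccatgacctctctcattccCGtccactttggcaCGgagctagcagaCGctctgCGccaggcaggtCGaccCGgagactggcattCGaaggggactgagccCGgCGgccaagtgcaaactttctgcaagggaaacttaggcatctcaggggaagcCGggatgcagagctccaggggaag
The Zic1 window held 27 CG dinucleotides, a number that 8.56% of 32851 promoter windows of this length reach, and 66.0% of its bases were G or C. The Zic4 window held 4 CG dinucleotides at 44.4% G or C, and the Zic5 window 11 at 62.4%, beside medians of 6 and 52.4% over all windows. The motif TAATTA, a core bound by many LIM-homeodomain proteins, was searched on both strands and was found in 4.84% of all windows and in none of these 3. The motif CAGCAGG, which resembles sites bound by Zic proteins, was found in 8.44% of all windows and also in none of these. These matches describe the letters in the windows and say nothing of binding. Over all its models in the RefSeq gene table, Zic4 begins before the start used for this window and reaches the start of Zic1 on the opposite strand, so the window precedes only one of its annotated starts. Probe positions were not used here.

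The Zic pairs had 13 measured neighbours in the RefSeq gene order. They were 12 genes flanking the pairs and the RNA gene 2610035F20Rik between Zic5 and Zic2. Of the 13, 0 passed limma's adjusted p of 0.05. An unadjusted p under 0.05 was found for 1 of 13, beside 5.9% of all genes higher and 3.77% lower at that level. The median log2 difference of the 13 neighbours was -0.023. It was that of Plscr2, with dim signals of 3.08 and 3.06 in Cre arrays and 3.13 and 3.06 in control arrays. Without overlap of the groups, 3 of 13 were higher and 3 of 13 lower, beside 23.3% and 15.8% of all genes. The gene with the unadjusted p was Adamts7, a metalloprotease gene on the far side of Zic1, with 6.60 and 5.67 in Cre arrays and 5.01 and 4.34 in control arrays (log2 difference 1.46, limma adjusted p = 0.355). The closest measured gene to Zic1, the RNA gene A730094K22Rik, differed by 0.0045, and the closest to Zic4, the scramblase family gene Plscr5, differed by -0.052. A730094K22Rik had 2.74 and 2.63 in Cre arrays and 2.79 and 2.57 in control arrays. Plscr5 had 3.07 and 3.10 in Cre arrays and 3.12 and 3.16 in control arrays. All of these signals were below the 75th percentile of their arrays, so the small differences do not show that these neighbours were unchanged. Plscr1, a phospholipid scramblase gene beyond Plscr5, differed by -0.66. On chromosome 14 the gene after Zic2, Pcca, a subunit of propionyl-CoA carboxylase, differed by -0.13, and the gene before Zic5, Clybl, by 0.21. Signals of 2610035F20Rik were also dim, at 2.66 and 2.55 in Cre arrays and 3.09 and 2.60 in control arrays.

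Among the relatives and partners of Zic proteins, 0 genes passed the test. The 6 Gli and Glis genes had a median log2 difference of -0.17, beside 0.033 over all genes. Gli1, the target and effector of hedgehog signalling, had the smallest p of them, with 5.66 and 4.02 in Cre arrays and 7.51 and 5.62 in control arrays (log2 difference -1.73, SE 0.82, limma adjusted p = 0.616). Its values overlapped between groups although the difference was of like size for replicate 1 (-1.85) and replicate 2 (-1.60). Glis3, a relative known for its role in the pancreas, differed by -0.25. The 5 measured genes that bind Zic proteins or are linked to Zic2 in the retina had a median log2 difference of -0.21. Of the 5, 3 lay below 0. Mdfi, whose product is known to bind Zic proteins and keep them out of the nucleus, was higher in both Cre arrays. Mdfi had 4.94 and 4.39 in Cre arrays and 3.66 and 3.51 in control arrays, a log2 difference of 1.08 (SE 0.23, limma adjusted p = 0.259). Both of its control signals were below the 75th percentile of their arrays, as for Zic4. Foxd1, a factor of ventrotemporal retina upstream of Zic2 in the mouse, had 4.56 and 4.41 in Cre arrays and 5.16 and 4.63 in control arrays (log2 difference -0.41, adjusted p = 0.719).

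Of 8 axon routing genes of retinal ganglion cells, 0 passed and 6 lay above 0, with a median of 0.20. Over all genes, 11590 of 20252 lay above 0 and 8662 below. Ephb1, the receptor through which Zic2 is known to act on ganglion cell axons, differed by 0.18 (-0.20 for replicate 1 and 0.56 for replicate 2). Plxna1, a semaphorin co-receptor, had 9.93 and 9.56 in Cre arrays and 9.12 and 8.13 in control arrays (log2 difference 1.12, limma adjusted p = 0.473), and Nrp1, another semaphorin co-receptor, differed by 0.60. Among 13 genes linked to holoprosencephaly other than Zic2, 0 passed and 11 lay below 0, with a median of -0.18. That median was the difference of Fgf8, which was dim, below the 75th percentile on every array. So were Foxh1, Nodal and Tdgf1, which also count among the 11. Cdon, a hedgehog co-receptor, differed by -1.19 (limma adjusted p = 0.488), and Six3, a forebrain and eye-field factor, by -0.65. Roof plate and dorsal midline genes, which share the dorsal neural tube with Zic genes, lay mostly above 0, with 12 of 15 higher, 0 passing and a median of 0.87. The R-spondin genes Rspo3 and Rspo2, secreted enhancers of Wnt signalling, had the smallest p, with log2 differences of 4.15 (limma adjusted p = 0.0735) and 2.69 (adjusted p = 0.123). Rspo3 had 7.02 and 7.68 in Cre arrays and 3.45 and 2.96 in control arrays, so Zic4 differed far less than the leading gene of this list. Lmx1a, a roof plate factor, differed by 0.63. The 3 members below 0 were Msx1 (-0.25), Msx2 (-0.27) and Wnt3a (-0.12). Msx1, Bmp4, Bmp7 and Ttr also stand in the ciliary margin or pigment epithelium lists, so this list is not particular to the dorsal midline.

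Marker levels of neighbouring tissues differed between the same arrays. For 14 periocular mesenchyme markers the mean log2 signal was 6.98 and 4.89 in Cre arrays and 4.10 and 4.01 in control arrays, with 13 of 14 above 0 and a median log2 difference of 3.05 for replicate 1 and 1.01 for replicate 2. Foxc1, a mesenchyme factor, differed by 2.10 (3.02 and 1.18 by replicate number), and Eya1 by 0.74. For 10 pigment epithelium markers the mean was 6.38 and 5.28 in Cre arrays and 4.43 and 4.91 in control arrays, with median log2 differences of 2.12 for replicate 1 and 0.32 for replicate 2. Rlbp1 (1.59) and Mitf (1.50) had the smallest p of these, not the largest differences. The Zic4 difference was 0.94 for replicate 1 and 1.15 for replicate 2, and the Zic1 difference 0.31 and 0.67. Without Cre replicate 1 the Zic4 difference was 1.16 and the Zic1 difference 0.65, and without Cre replicate 2 they were 0.93 and 0.33. Both Cre arrays had mesenchyme means above both control arrays, so leaving out 1 of them does not level these means. The 12 forebrain markers averaged 5.99 and 6.17 in Cre arrays and 4.49 and 4.39 in control arrays, with 9 of 12 above 0 and median log2 differences of 1.94 for replicate 1 and 1.31 for replicate 2. The 12 were split by replicate number, 6 with the higher difference for each. The hypothalamic factors Sim1 and Otp, with the smallest p of this list, differed by 4.60 and 3.46 for replicate 1 and by 5.76 and 4.24 for replicate 2. The 3 members below 0 were Dlx1 (-1.90), Dlx2 (-2.23) and Emx1 (-0.026). The part of these tissues in the Zic differences was not tested. Ciliary margin markers had a median of 0.83 (Wls 2.24 and Wfdc1 -2.22), with 1.29 for replicate 1 and 0.26 for replicate 2. Lens and surface ectoderm markers had a median of 0.34 (Krt18 0.99 and Krt14 0.38), with 0.69 for replicate 1 and -0.12 for replicate 2. Of these 8 markers, 6 lay above 0, and Cryaa (-0.49) and Crybb3 (-0.25) below. Neuroretina markers had a median of -1.01 (Six6 -3.59 and Fgf15 -3.42). No marker list had a member past limma's adjusted p of 0.05.

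**Figure D4:**
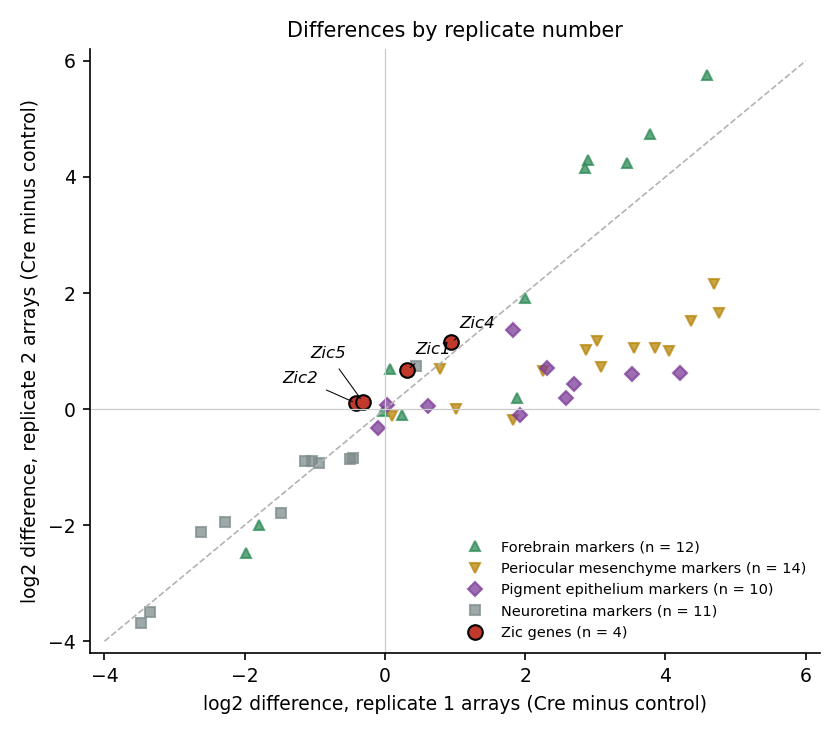
Log2 difference, Cre minus control, for replicate 1 (horizontal axis) and for replicate 2 (vertical axis), for the 4 Zic genes (red circles) and for markers of forebrain, periocular mesenchyme, pigment epithelium and neuroretina. The dashed line marks equal differences. The 4 Zic genes lie above it, the 14 mesenchyme markers below it, and Zic2 and Zic5 are below 0 on one axis and above 0 on the other. Over all genes, which are not drawn, 11239 of 20252 had the larger difference for replicate 1.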

How the data were processed

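Total RNA of dissected neuroretina was hybridised to Affymetrix whole-transcript arrays after removal of ribosomal RNA, per the labels' protocols. The deposited values are log2 signals per transcript cluster, and the submitters' processing notes name RMA, Partek and the build mm9, without versions. Groups and replicate numbers came from the sample titles. Nothing says that replicates came from separate animals or litters, so the p-values rest on a spread between arrays that may be technical. No sequencing depth applies, and the number of arrays limits precision.

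Each array was shifted to a common median over all transcript clusters. An earlier analysis of these data used unshifted values. On simulated arrays to which the offsets between array medians had been added, unshifted values made a larger share of false calls. That outcome follows from the added offsets, so it does not show which scale suits the real arrays. Of 112205 clusters, 25513 had 1 symbol, 2290 had several and 84402 were unnamed here, and the brightest cluster stood for each of 20252 genes. The test was limma's, version 3.58.1 under R 4.3.3 (lmFit, eBayes with an intensity trend, genotype as the only term, two-sided, Benjamini-Hochberg over all genes, threshold 0.05). Limma shares spread between genes, so the SE is not that of a gene's own arrays alone. Intervals use limma's moderated distribution.

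Exact permutation tests used SciPy 1.17.1. Promoter sequences came from RefSeq tables, which hold 3 of the 4 members. The members and gene lists were chosen with earlier results of these data known. Named genes are the members, Lhx2, the neighbours and, from each list, up to 4 passing genes or otherwise the 2 of smallest p. Ephb1, Lmx1a, Wnt3a, Dlx1, Dlx2, Emx1, Fgf8, Foxh1, Nodal, Tdgf1, Msx1, Msx2, Bmp4, Bmp7, Ttr, Cryaa and Crybb3 were added after their values were seen. Genes with a like pattern were to be named only for members that passed, and none did. Some genes stand in more than 1 list. Alternatives covered the array scale, the variance prior, the rule for several clusters, a filter on dim genes, the threshold, the replicate number as a term and each array left out.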

Additional observations from a re-analysis of the deposited data

Results flagged for a closer look

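A further transcript cluster, 6961396, stood outside the comparison because the annotation gives it both Zic4 and an RNA gene, B130024G19Rik, which RefSeq places on chromosome 7 and not beside Zic4. Its log2 signals were 5.23 and 5.44 in Cre arrays and 3.44 and 3.41 in control arrays, a log2 difference of 1.91, with 1.79 for replicate 1 and 2.03 for replicate 2. It was looked at because its annotation holds a Zic symbol and the comparison left it out, not for its signal. Which of the genes its probes measure is not settled here, so it is counted for neither, and its difference was not tested.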

How the results depend on the processing

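There were 13 fits, the one reported, 8 other settings and 4 that left out 1 array. In the one reported and the 8 other settings, 0 of the 4 Zic genes passed limma's adjusted p of 0.05. At 0.10 none passed with all arrays and equal medians. A fit without 1 array takes its spread from the other group alone, so only its differences are given. Zic4 had a limma unadjusted p under 0.05 in the fit reported and in each of the 8 other settings, with adjusted p between 0.133 and 0.583 in those 8. Zic1 had one in 2 of the 8. With 1 array left out, the differences ran from 0.93 to 1.16 for Zic4, 0.33 to 0.65 for Zic1, -0.48 to 0.17 for Zic2 and -0.27 to 0.083 for Zic5. The values of 0.17 and 0.083, without control replicate 1, turned the direction of Zic2 and Zic5. The scale moved the median of all genes from 0.033 to -0.14 when arrays were centred on named genes, where Zic4 differed by 0.87 and Zic1 by 0.31.

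The number of genes called depended on the setting. Over all genes it was 0 as reported, 17 at an adjusted p of 0.10 (11 higher, 6 lower), 415 on deposited values (257 and 158), 118 with arrays centred on named genes (52 and 66), 53 without dim genes (33 and 20), and 0 to 777 with 1 array left out (777 without Cre replicate 2 and 273 without Cre replicate 1). Among genes of the lists the counts were 0, 6, 37, 16, 12 and 0 to 43 in the same order, and among neighbours 0, then 1 on deposited values and 0 to 1 with 1 array left out. Quantile normalization called 0 genes (2263 at an unadjusted p under 0.05). Same-numbered arrays deviated together across genes (r = 0.479), but the labels do not say that numbers mark pairs. With the replicate number as a block, 0 genes passed (3266 at an unadjusted p under 0.05), and adjusted p was 0.133 for Zic4 and 0.277 for Zic1 at unchanged differences of 1.04 and 0.49. The cause of these shifts was not tested. Both control signals of Zic4 were below the 75th percentile of their arrays, which limits its fold.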
